A study of Mus musculus with 2 samples.

Results

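The IkB family holds the proteins that bind the transcription factor NF-kB. It was followed here through 6 mouse genes, the classical inhibitors Nfkbia (IkB-alpha), Nfkbib (IkB-beta) and Nfkbie (IkB-epsilon) and the atypical members Nfkbid (IkB-NS), Nfkbiz (IkB-zeta) and Bcl3. They were chosen by gene symbol, and all 6 were found among the 55536 gene rows of the tables. The 1 group of the series was C57BL/6J bone marrow-derived macrophages, cells grown from mouse marrow, given 100 ng/ml lipid A for 50 minutes. Lipid A is the part of bacterial endotoxin that the receptor TLR4 recognises. Total RNA of the nucleoplasm, depleted of ribosomal RNA, was sequenced in 2 biological replicates, with 1 µg of starting RNA in replicate 2 and 500 ng in replicate 1. Another label calls the fraction nuclear, both libraries carry 1 donor label, and sex and age were not collected, so whether the cultures came from separate mice is not known. Untreated cells were not analysed here. The values below are therefore levels after lipid A and not responses to it, and no test between conditions was possible.

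Classical IkB proteins hold NF-kB dimers in the cytoplasm. When TLR4 is engaged, the IKK kinases phosphorylate the inhibitor, a ubiquitin ligase marks it for destruction, and the freed NF-kB enters the nucleus. There it drives, among others, the gene for IkB-alpha, and the newly made inhibitor ends the signal. Atypical IkB proteins act mainly in the nucleus, where they sit on NF-kB that is already bound to DNA and raise or lower transcription of chosen genes.

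The tables held 20495545 expected counts in gene rows in replicate 2 and 10342881 in replicate 1. The TPM scale (transcripts per 1000000, a level corrected for transcript length) was shifted between the libraries. Among 11380 genes of mean TPM at least 1, the median ratio of replicate 2 over replicate 1 was 0.619. Protein-coding genes held 17.0% of all TPM in replicate 2 and 26.2% in replicate 1. The SD of each TPM below contains this common shift. Each of the 8 macrophage markers had at least 10 TPM in both replicates. Of 21 markers of other blood, stromal and endothelial cells, 3 reached 1 TPM in both libraries, none reached 10 TPM in both and 7 were listed at 0 in both. The highest was Kdr, at 3.43 TPM in replicate 2 and 3.90 in replicate 1. The summed TPM of those 21 was 8.41 in replicate 2 and 9.12 in replicate 1, against 2997 and 3590 for the macrophage markers. In the read-based tables, a second deposited quantification, the T cell marker Cd3d had 1.05 TPM in replicate 2 and 10.4 in replicate 1.

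As a group the IkB genes were abundant in this nuclear RNA. Each of the 6 had at least 10 TPM in replicate 2 and in replicate 1, against 31.8% of the 9158 protein-coding genes of mean TPM at least 1. The 6 were chosen with earlier results of these data known. Their median was 83.1 TPM in replicate 2 and 116 in replicate 1, against 5.12 and 7.82 for those coding genes. Together they summed to 1008 TPM in replicate 2 and 1383 in replicate 1. With TPM rescaled to sum to 1000000 over the protein-coding genes of the nuclear genome, the sum was 5915 in replicate 2 and 5284 in replicate 1, or 5599 ± 446 (SD, n = 2). These are levels in bulk RNA, in which fewer cells of a type and less RNA per cell cannot be told apart.

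On the TPM scale of the alignment-based tables the levels ran in 1 order in both libraries, Nfkbia, Nfkbiz, Nfkbie, Nfkbid, Nfkbib and Bcl3. Nfkbia had 1.95 times the TPM of Nfkbiz in replicate 2 and 1.18 times in replicate 1. Nfkbiz had 2.79 times the TPM of Nfkbie in replicate 2 and 3.80 times in replicate 1. Nfkbib had 1.68 times the TPM of Bcl3 in replicate 2 and 4.58 times in replicate 1. For these 3 pairs the ranges over the 2 libraries did not overlap. Nfkbie over Nfkbid was 1.28 in replicate 2 and 1.23 in replicate 1, and Nfkbid over Nfkbib was 1.60 and 1.41. For both of those neighbouring pairs the ranges over the libraries overlapped on the TPM scale, and they did not overlap once TPM was rescaled over coding genes. The read-based tables kept the top pair in this order. There Nfkbie over Nfkbid was 0.953 in replicate 2 and 1.03 in replicate 1, and Nfkbib over Bcl3 was 0.928 and 1.39, so these neighbours changed places between the libraries. On CPM (counts per 1000000, with no length correction) Nfkbiz stood above Nfkbia in both libraries. The classical and the atypical members did not form separate tiers, since each class held 1 of the top pair.

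**Figure D1:**
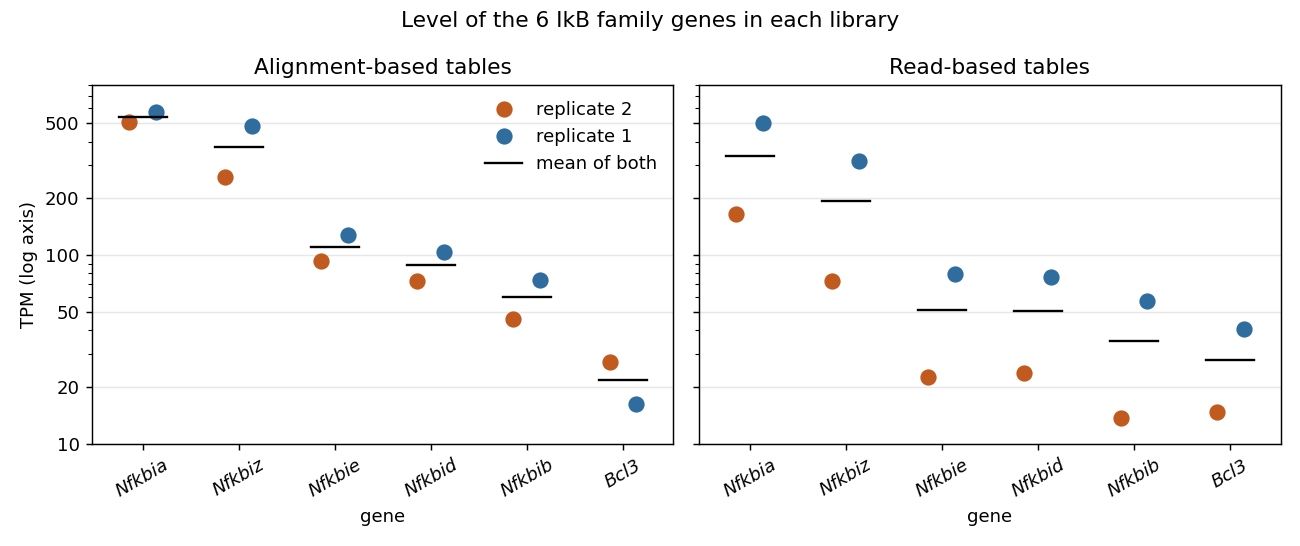
TPM (log axis) of each IkB gene in replicate 2 (orange, left) and replicate 1 (blue, right), with a line at the mean, in the alignment-based tables (left panel) and the read-based tables (right panel). In the left panel the genes run down from Nfkbia (mean 541 TPM) to Bcl3 (mean 21.7 TPM), and Bcl3 is the only gene whose replicate 2 point is above that of replicate 1.

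**Figure D2:**
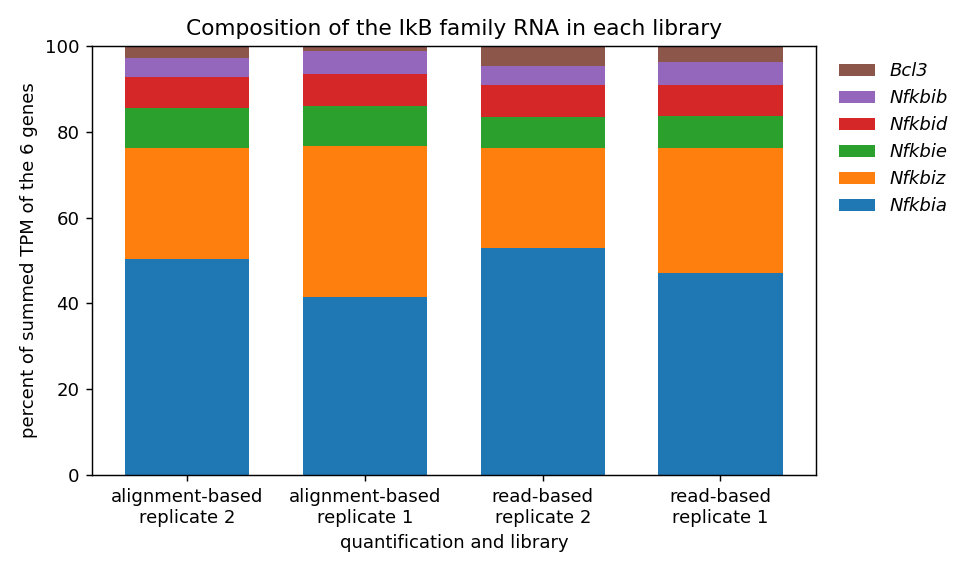
Percent of the summed TPM of the 6 IkB genes held by each gene, in each library and each deposited quantification. Nfkbia held 50.4% in replicate 2 and 41.4% in replicate 1 of the alignment-based tables, and Nfkbiz 25.8% and 35.2%.

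Nfkbia encodes IkB-alpha, the inhibitor that NF-kB itself induces and that closes the feedback loop. It had 508 TPM in replicate 2 and 573 TPM in replicate 1, from 23245 and 8343 expected counts. Its mean of 541 ± 45.8 TPM (SD, n = 2) was the highest of the family, and it ranked 25 in replicate 2 and 41 in replicate 1 among 22015 coding genes of the nuclear genome. Its share of the family's TPM was 50.4% in replicate 2 and 41.4% in replicate 1. The gene (ENSMUSG00000021025.8) is short, 3238 bases on the minus strand at chr12:55489410-55492647 of mm10. Because Nfkbia is a textbook NF-kB target, the 250 bases before its start are shown, at chr12:55492648-55492897 on the minus strand, from RefSeq on GRCm38.p6. Capitals mark the 1 match to the NF-kB consensus motif, 29 to 20 bases before the start.
Nfkbia promoter: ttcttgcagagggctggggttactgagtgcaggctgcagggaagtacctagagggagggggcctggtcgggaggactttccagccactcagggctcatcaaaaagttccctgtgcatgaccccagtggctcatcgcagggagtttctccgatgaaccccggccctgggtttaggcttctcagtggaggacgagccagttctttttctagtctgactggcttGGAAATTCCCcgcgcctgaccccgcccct

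Both strands of each window were searched for the NF-kB consensus GGGRNNYYCC (R is A or G, Y is C or T, N any base). It occurred in 7.25% of 32851 RefSeq promoters of this length. Of the IkB genes, 5 had entries, and the consensus was found before Nfkbia, before Nfkbie (106 to 97 bases before the start) and before 1 of the 3 starts of Nfkbid. The letters were not found in the windows of Nfkbib and Bcl3. A match is a run of letters and no measurement of binding.

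The coding isoform Nfkbia-201, which encodes 314 residues, held 95.2% of the gene's TPM in replicate 2 and 93.0% in replicate 1. The rest lay in Nfkbia-202, annotated as a retained intron, which reaches 32 bases into the 521-base intron 1 and holds no intron whole. In the read-based tables Nfkbia-202 held 20.5% in replicate 2 and 16.6% in replicate 1, a larger share in both libraries.

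Nfkbib encodes IkB-beta, an inhibitor that is degraded and remade more slowly than IkB-alpha. It had 45.7 TPM in replicate 2 and 74.0 TPM in replicate 1, from 1794 and 920.2 expected counts, with a mean of 59.9 ± 20.0 TPM (SD, n = 2). Among coding genes it ranked 652 in replicate 2 and 624 in replicate 1, so its place was nearly the same although its TPM differed. The gene (ENSMUSG00000030595.15, chr7:28758251-28767512, minus strand) overlaps Sirt2 by 42 exon bases and Ccer2 by 314 exon bases, both on the opposite strand. Sirt2, a deacetylase gene, had 41.1 TPM in replicate 2 and 47.0 in replicate 1, and Ccer2 had 0.83 and 1.47. The strand setting of the counting is not given in the sources used here, so reads in the shared bases cannot be assigned with certainty. Nfkbib-202 held 88.7% ± 1.53 of the gene's TPM and Nfkbib-201 11.3% ± 1.53 (SD, n = 2). Both encode the same 359 residues, and no noncoding isoform of this gene is annotated.

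Nfkbie encodes IkB-epsilon, an inhibitor that acts mainly on dimers of RelA and c-Rel. It had 93.4 TPM in replicate 2 and 128 TPM in replicate 1, from 7967 and 3509 expected counts, with a mean of 111 ± 24.7 TPM (SD, n = 2). It ranked 301 in replicate 2 and 344 in replicate 1. Its share of the family's TPM was 9.27% in replicate 2 and 9.28% in replicate 1. The gene (ENSMUSG00000023947.8) lies at chr17:45555703-45563169 on the plus strand.

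Much of the Nfkbie RNA was assigned to an isoform annotated as keeping an intron. The isoform Nfkbie-202 keeps the whole of intron 2 of 5, which is 610 bases at chr17:45558598-45559207, and is otherwise spliced like the coding isoform. It held 47.5% of the gene's TPM in replicate 2 and 39.1% in replicate 1, against 49.6% and 56.0% for the coding isoform Nfkbie-201, which encodes 364 residues. The read-based tables gave Nfkbie-202 nearly the same shares, 46.9% in replicate 2 and 36.7% in replicate 1. In nuclear RNA, reads of intron 2 may also come from RNA not yet spliced. No other annotated Nfkbie isoform holds this intron, so such reads would be assigned to Nfkbie-202. Their part was not tested. By expected counts Nfkbie-202 held 53.2% (95% Wilson interval 52.1 to 54.3) in replicate 2 and 44.8% (43.1 to 46.4) in replicate 1. These intervals treat each assigned read as an independent draw. Without molecular identifiers several reads may come from the same molecule, and the assignment to isoforms is itself an estimate. The intervals may therefore be too narrow. The deposited posterior SD of the Nfkbie-202 count was 86.6 in replicate 2 and 56.1 in replicate 1, on expected counts of 4236 and 1571. The borders of this intron are shown because this intron separates the 2 main isoforms, from the GENCODE M21 transcripts on the plus strand. Capitals mark intron bases, and the splice border lies where the exons meet in Nfkbie-201. The intron start is at chr17:45558568-45558627 and the intron end at chr17:45559178-45559237.
Nfkbie-202 intron start: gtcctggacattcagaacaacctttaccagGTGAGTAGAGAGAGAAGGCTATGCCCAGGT
Nfkbie-202 intron end: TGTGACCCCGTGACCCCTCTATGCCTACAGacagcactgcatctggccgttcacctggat
Nfkbie-201 spliced border: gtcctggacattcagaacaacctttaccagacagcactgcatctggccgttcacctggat

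Nfkbid encodes IkB-NS, a nuclear IkB without the signal-dependent degradation sites of the classical inhibitors. It had 72.9 TPM in replicate 2 and 104 TPM in replicate 1, from 4187 and 2019 expected counts, with a mean of 88.7 ± 22.3 TPM (SD, n = 2). It ranked 389 in replicate 2 and 431 in replicate 1. The gene (ENSMUSG00000036931.15, chr7:30421732-30428746, plus strand) has 3 annotated coding starts. Nfkbid-203 begins at the first and encodes 470 residues, Nfkbid-202 begins 674 bases further on, and Nfkbid-201 begins 1543 bases further on. Both Nfkbid-202 and Nfkbid-201 encode 327 residues.

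The deposited quantifications divided Nfkbid among these starts differently. In the alignment-based tables Nfkbid-203 held 71.2% of the gene's TPM in replicate 2 and 67.2% in replicate 1, and Nfkbid-202 held 0.37% and 0. In the read-based tables Nfkbid-203 held 37.5% in replicate 2 and 27.3% in replicate 1, and Nfkbid-202 held 32.1% and 38.1%. Nfkbid-201 was close in both, at 23.4% ± 5.84 in the alignment-based tables and 19.3% ± 2.48 in the read-based tables (SD, n = 2). The 470-residue product therefore made up 74.7% ± 5.28 of coding TPM in the alignment-based tables and 37.3% ± 8.05 in the read-based tables. The gap between the tables was wider than the range over the libraries in either of them. The gene's total was less affected, and its rank in the read-based tables was 382 in replicate 2 and 536 in replicate 1.

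The windows before the 3 starts are shown because the isoforms differ there, all on the plus strand, from RefSeq on GRCm38.p6. They lie at chr7:30421481-30421730 before Nfkbid-203, at chr7:30422156-30422405 before Nfkbid-202 and at chr7:30423025-30423274 before Nfkbid-201. Capitals mark the NF-kB consensus, which was found in 2 places before Nfkbid-202, 226 to 217 and 181 to 172 bases before that start, and in neither of the other windows.
Before Nfkbid-203: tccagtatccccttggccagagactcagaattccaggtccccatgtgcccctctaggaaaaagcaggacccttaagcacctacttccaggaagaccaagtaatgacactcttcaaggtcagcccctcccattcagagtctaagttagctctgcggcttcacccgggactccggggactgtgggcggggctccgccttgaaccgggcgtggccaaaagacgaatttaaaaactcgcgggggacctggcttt
Before Nfkbid-202: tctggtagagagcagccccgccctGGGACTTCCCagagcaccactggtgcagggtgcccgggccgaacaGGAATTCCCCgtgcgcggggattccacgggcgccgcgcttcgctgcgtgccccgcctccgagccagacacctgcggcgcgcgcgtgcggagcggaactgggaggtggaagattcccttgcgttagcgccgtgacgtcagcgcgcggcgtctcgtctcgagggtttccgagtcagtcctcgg
Before Nfkbid-201: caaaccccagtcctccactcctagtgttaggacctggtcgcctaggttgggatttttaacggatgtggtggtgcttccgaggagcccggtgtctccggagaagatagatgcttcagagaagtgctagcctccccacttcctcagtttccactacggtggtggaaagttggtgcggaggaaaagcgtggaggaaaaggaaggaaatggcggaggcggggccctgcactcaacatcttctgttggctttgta

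Nfkbid also has a retained-intron isoform, Nfkbid-204, a fragment that keeps the whole of the 114-base intron 7 of 11 at chr7:30425856-30425969. Its share of the gene's TPM was 9.14% in replicate 2 and 5.31% in replicate 1, from 72.8 and 18.0 expected counts. In the read-based tables its share was 12.8% in replicate 2 and 13.5% in replicate 1. The intron is shown whole with 30 bases of exon on each side, at chr7:30425826-30425999 on the plus strand from the GENCODE M21 transcripts, with intron bases in capitals, to set beside the longer Nfkbie intron.
Nfkbid-204 intron: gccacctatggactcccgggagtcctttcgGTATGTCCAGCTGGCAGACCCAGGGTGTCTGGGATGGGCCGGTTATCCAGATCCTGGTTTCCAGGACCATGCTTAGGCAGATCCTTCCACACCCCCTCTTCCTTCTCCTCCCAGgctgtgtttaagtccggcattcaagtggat

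Nfkbiz encodes IkB-zeta, a nuclear coactivator that works with the p50 subunit on genes such as Il6 and Lcn2. It had 260.2 TPM in replicate 2 and 487 TPM in replicate 1, from 28139 and 17817 expected counts, with a mean of 374 ± 161 TPM (SD, n = 2). It was the highest of the atypical members and ranked 72 in replicate 2 and 60 in replicate 1. The gene (ENSMUSG00000035356.17, chr16:55811375-55838899, minus strand) is the longest of the family at 27525 bases.

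Most Nfkbiz RNA was assigned to an internal start. Nfkbiz-204 begins 16761 bases after the first annotated start and held 78.8% of the gene's TPM in replicate 2 and 86.8% in replicate 1. The isoforms that begin at the first start held 21.2% in replicate 2 and 13.2% in replicate 1. The read-based tables gave those first-start isoforms 25.7% ± 6.11 (SD, n = 2), so the internal start held the larger share in both quantifications. The first exon of Nfkbiz-204 begins at base 16761 and the third exon of Nfkbiz-201 at base 16784. Both end at base 17131, and the later exons are the same. The assignment to Nfkbiz-204 therefore rests on few bases of its own and on how many reads lie in the earlier exons of Nfkbiz-201. The product of 728 residues made up 91.5% ± 2.94 of coding TPM, and the shorter product of 629 residues, which comes mainly from Nfkbiz-203, made up 8.55% ± 2.94 (SD, n = 2). No retained-intron isoform of Nfkbiz is annotated. Its noncoding RNA was Nfkbiz-205, a processed transcript of the 5' part of the gene, with 11.8% of TPM in replicate 2 and 7.20% in replicate 1.

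**Figure D3:**
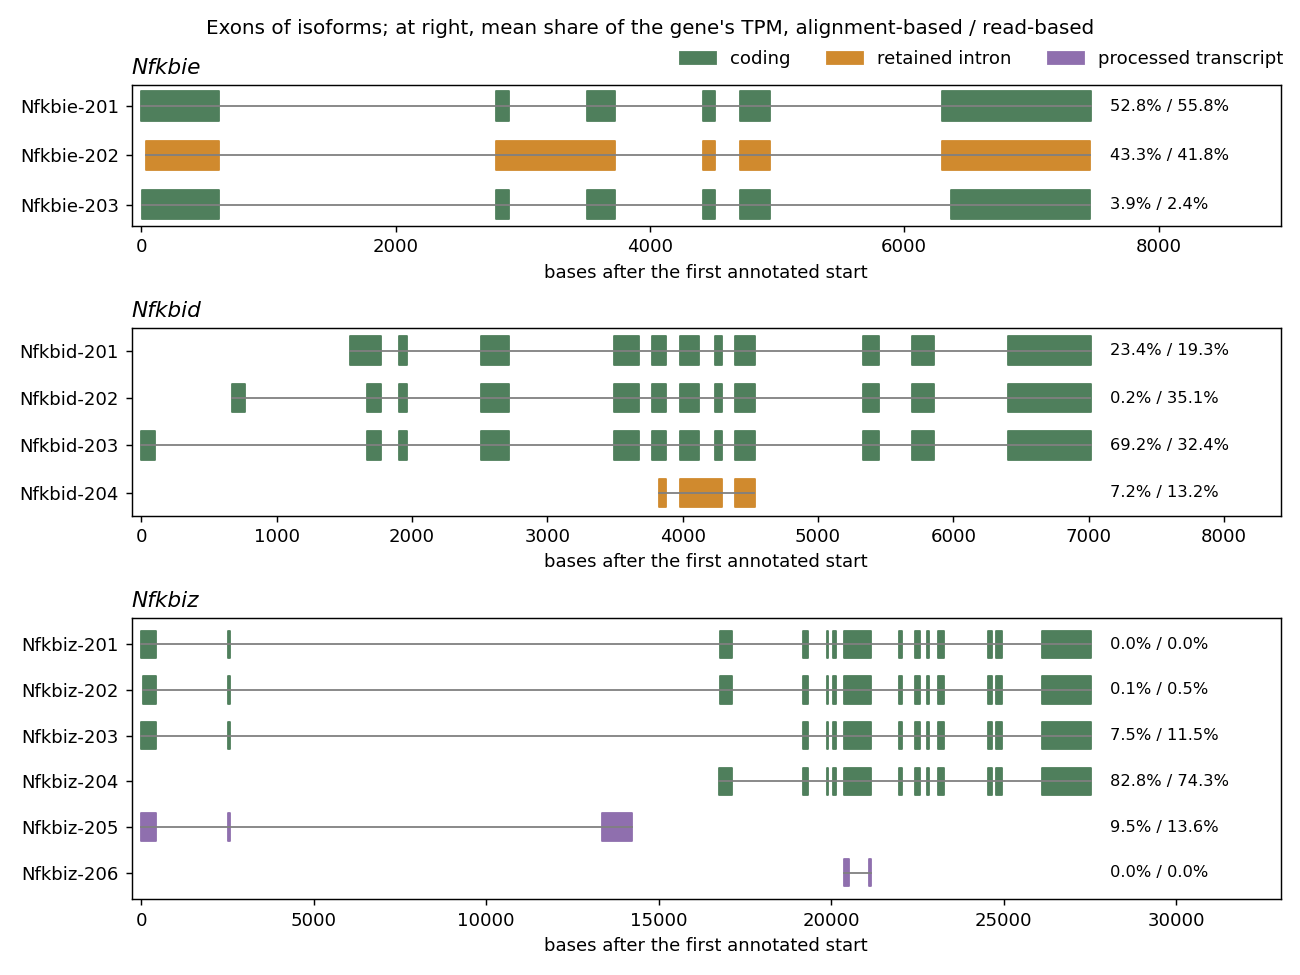
Exons (boxes) of the isoforms of Nfkbie, Nfkbid and Nfkbiz against bases after each gene's first annotated start, coloured by annotated class, with the mean share of the gene's TPM at the right (alignment-based, then read-based). The second box of Nfkbie-202 fills the gap between the second and the third exons of Nfkbie-201, and Nfkbiz-204 begins to the right of the first exons of Nfkbiz-201, Nfkbiz-202 and Nfkbiz-203.

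Bcl3 encodes Bcl-3, which binds dimers of the p50 or p52 subunits and can activate or repress. It had 27.2 TPM in replicate 2 and 16.2 TPM in replicate 1, with a mean of 21.7 ± 7.84 TPM (SD, n = 2), the lowest of the family in the alignment-based tables. Its read-based level was 14.7 TPM in replicate 2, above Nfkbib at 13.7, and 40.7 in replicate 1, below Nfkbib at 56.7. Its expected counts were 949 (95% Poisson interval 890 to 1011) in replicate 2 and 206 (179 to 236) in replicate 1, at the different depths given above. It ranked 1189 in replicate 2 and 2882 in replicate 1, the largest move in rank within the family. The gene (ENSMUSG00000053175.17, chr7:19808462-19822770, minus strand) overlaps a pair of antisense genes. Gm16175 shares 161 exon bases with it and had 0.41 TPM in replicate 2 and 0 in replicate 1. Gm16174 shares none and had 5.46 and 1.46 TPM.

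The division of Bcl3 among its isoforms also differed between the tables. In the alignment-based tables the coding isoform Bcl3-201, of 448 residues, held 46.9% of the gene's TPM in replicate 2 and 57.6% in replicate 1. In the read-based tables it held 26.2% in replicate 2 and 17.6% in replicate 1. The processed transcripts Bcl3-204 and Bcl3-205 accounted for much of that gap. Bcl3-204 had 1.64 and 0 expected counts in replicates 2 and 1 of the alignment-based tables, against 199.7 and 134 estimated counts in the read-based tables. Bcl3-205 had 0 in both libraries of the alignment-based tables, against 94.2 estimated counts in replicate 2 and 25.4 in replicate 1 of the read-based tables. The retained-intron isoforms Bcl3-202 and Bcl3-206 hold parts of introns 2 and 3, and neither holds an intron whole.

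Across the family, noncoding isoforms took a small part of most genes. Of the 5 members with such an isoform, Nfkbie and Bcl3 held at least 25% of their TPM in it in both libraries, 2 of 5, against 51.4% of 7677 coding genes with such an isoform. The read-based tables gave the same 2 genes, against 69.7% of coding genes. The median share over coding genes was 33.7% in replicate 2 and 31.0% in replicate 1. The mean share was 5.90% for Nfkbia, 7.23% for Nfkbid and 9.52% for Nfkbiz, and 12.3%, 14.3% and 17.3% of coding genes had lower shares. It was 43.3% for Nfkbie and 36.0% for Bcl3, with 65.2% and 55.3% of coding genes lower. The Bcl3 share averaged 74.1% in the read-based tables, above that of Nfkbie at 41.8%. By expected counts the noncoding share of Bcl3 was 15.7% in replicate 2 and 13.4% in replicate 1, against 53.2% and 44.8% for Nfkbie. By read-based estimated counts that of Bcl3 was 32.2% and 37.9%, against 52.6% and 42.2% for Nfkbie. In the alignment-based tables Nfkbia was the 1 member whose share of TPM was lower in replicate 2 than in replicate 1, against 46.7% of coding genes with a share above 0 in replicate 1. The read-based tables turned this round, with Nfkbia higher in replicate 2 and Nfkbid and Bcl3 lower.

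**Figure D4:**
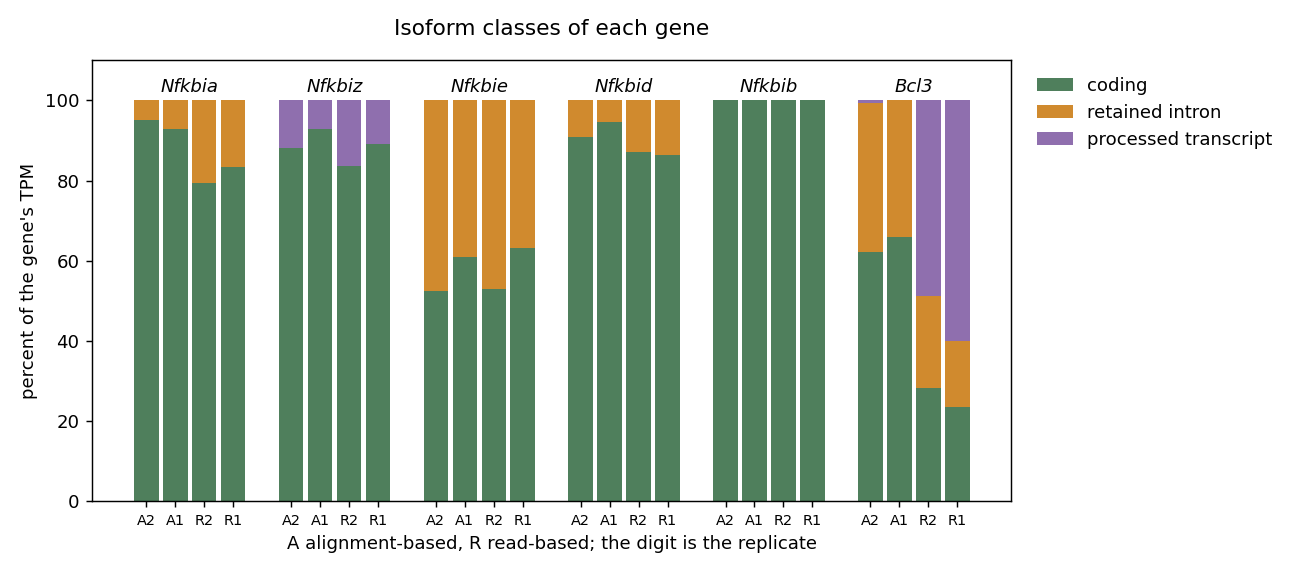
Percent of each gene's TPM in coding, retained-intron and processed-transcript isoforms, in replicates 2 and 1 of the alignment-based (A) and read-based (R) tables. The 4 Nfkbie bars are alike, with 36.7% to 47.5% in the retained-intron isoform, and the Bcl3 bars differ between the tables, with 37.9% and 34.1% noncoding in A2 and A1 and 71.6% and 76.6% in R2 and R1.

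The replicates were compared gene by gene after removal of the median shift, a difference on the log2 TPM scale of replicate 2 minus replicate 1. Bcl3 differed by 1.45, a 2.72-fold higher relative level in replicate 2. It was the 1 member of 6 more than 2-fold from the median gene, against 9.9% of the 11380 genes. The other 5 lay within 2-fold, against 90.1% of those genes. Nfkbia differed by 0.52, Nfkbie by 0.23 and Nfkbid by 0.17, all higher in replicate 2. Nfkbib differed by -0.0043 and Nfkbiz by -0.21. With 1 library on each side these are differences between libraries, which also differ in starting RNA and depth, and the part of these was not tested. In the read-based tables Bcl3 differed by 0.79, inside 2-fold, and all 6 values were above 0. The read-based TPM of Bcl3 was 14.7 in replicate 2 and 40.7 in replicate 1, against 27.2 and 16.2 in the alignment-based tables. The median ratio of replicate 2 over replicate 1 was 0.208 in the read-based tables, against 0.619 in the alignment-based tables. Before this shift is removed the tables differ on which library holds more Bcl3. After its removal both put Bcl3 higher in replicate 2. Relative to the median gene, the read-based level of Bcl3 over the alignment-based one was 0.84 higher in replicate 2 and 1.65 higher in replicate 1 on the log2 scale. It was past 2-fold in replicate 1 alone, and no member was past it in both libraries, against 7.22% of genes.

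**Figure D5:**
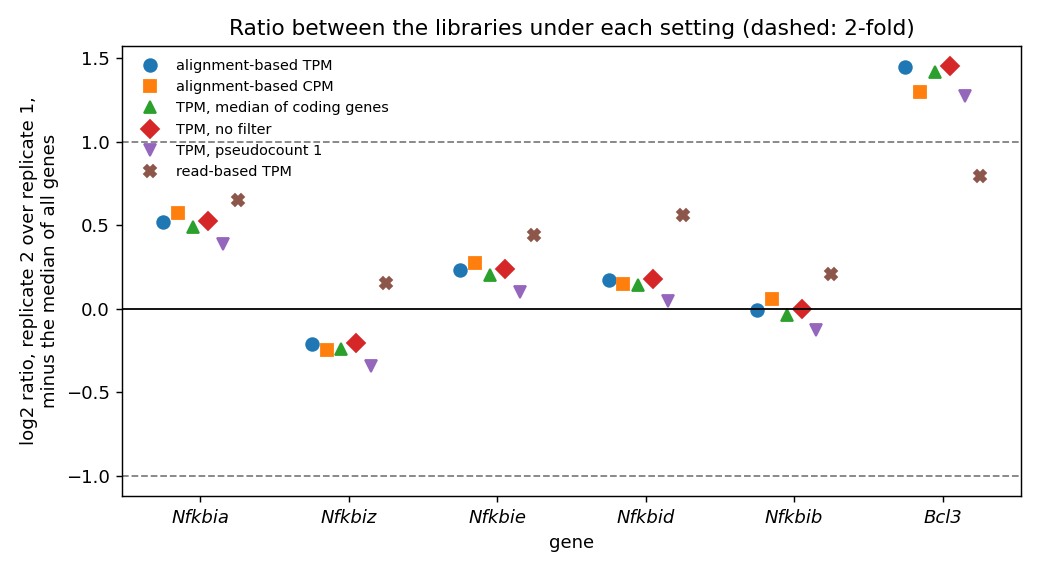
Log2 ratio of replicate 2 over replicate 1 for each IkB gene, minus the median of all genes, under 6 settings (symbols), with dashed lines at 2-fold. Bcl3 lies between 1.28 and 1.45 in the alignment-based settings and at 0.79 in the read-based tables, while the other genes stay inside the dashed lines.

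RNA was also measured for genes of proteins that the IkB family binds, and of proteins that mark its classical members for destruction. The 5 NF-kB subunit genes all had at least 10 TPM in each replicate. Nfkb1, the p105 precursor of p50 and itself an IkB-like protein, was the highest, at 125 TPM in replicate 2 and 185 in replicate 1. Nfkb2, the p100 precursor of p52, had 95.9 and 92.6 TPM, Rel 64.4 and 115, Relb 46.0 and 50.6, and Rela 33.8 and 49.9. On the TPM scale Nfkbia and Nfkbiz each stood above all 5 subunit genes in both libraries. By expected counts, with no length correction, Rel had 15887 in replicate 2, below Nfkbia at 23245, and 9385 in replicate 1, above Nfkbia at 8343. By that measure Rel was also above Nfkb1, which had 11936 and 5871. Of the IKK complex, which phosphorylates the classical inhibitors, the kinase gene Ikbkb had 42.8 TPM in replicate 2 and 64.2 in replicate 1. Its partner Chuk had 21.2 and 33.6 TPM and the regulatory subunit Ikbkg 4.12 and 7.89. Of the 5 genes of the ubiquitin ligase of IkB, 2 reached 10 TPM in both libraries. The substrate receptor Fbxw11 had 30.7 TPM in replicate 2 and 20.8 in replicate 1, from 1376 and 843 expected counts. Its close relative Btrc had 6.28 and 12.2 TPM. The scaffold Cul1 had 11.2 and 16.7 TPM, the ring subunit Rbx1 9.07 and 13.2, and the adaptor Skp1a 3.53 and 5.49.

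The A20 group, which attaches, removes or reads ubiquitin to limit the same pathway, held 6 of 8 genes with at least 10 TPM in each replicate. Tnfaip3, which encodes A20, was the highest of all 28 pathway genes, at 536 TPM in replicate 2 and 975 in replicate 1. It was the 1 pathway gene above Nfkbia in both libraries. Cyld, a deubiquitinase, was the lowest of that list at 4.95 and 9.81 TPM. The IkB-related ankyrin genes were low, with Nfkbil1 at 6.26 TPM in replicate 2 and 4.94 in replicate 1 and Tonsl at 0.37 and 0.70. Over all the pathway lists, 17 of 28 genes reached 10 TPM in both libraries, against 31.8% of coding genes of mean TPM at least 1. The pathway genes were not filtered in that way.

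The 5 listed genes known from mouse macrophages to need IkB-zeta all stood below Nfkbiz in both libraries, and 2 of them reached 10 TPM in both. Il12b, a subunit of the cytokines IL-12 and IL-23, had 35.0 TPM in replicate 2 and 25.9 in replicate 1. Csf2, the growth factor GM-CSF, had 17.4 and 14.7 TPM, and Il6 had 2.01 and 4.08 TPM. Csf3 and Lcn2 were at the edge of detection, with 25 and 8 counts for Csf3 and 32 and 3 counts for Lcn2 in replicates 2 and 1. These are levels at 1 time point and say nothing of when each gene is switched on.

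For each IkB gene, the nearest of the 28 pathway genes was found by the distance between their log2(TPM + 1) values over the 2 libraries. Nfkbib was nearest to Ikbkb (0.22), Nfkbie to Tnip1 (0.22), Nfkbid to Rel (0.23) and Bcl3 to Fbxw11 (0.38). Nfkbia was nearest to Tnfaip3 at a larger distance of 0.77, and Nfkbiz to Tnip3 at 1.23, the largest distances of the 6. With 2 libraries, likeness is mostly a like level. It is also a likeness of TPM. In expected counts Bcl3 had 949 in replicate 2 and 206 in replicate 1, against 1376 and 843 for Fbxw11.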

How the data were processed

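Per the deposited readme files, the authors derived expected counts and TPM of genes and transcripts from transcriptome alignments (alignment-based tables). They derived estimated counts and a second set of TPM directly from reads, deposited as 1 more table for each library (read-based tables). The files use mm10 with GENCODE annotation M21. The sources used here name no program, version, strand setting or filter. Rows that name no gene were left out. Their share of expected counts was 0.0968% (replicate 2) and 0.504% (replicate 1). The read-based tables held 28995543 estimated counts in replicate 2 and 19734725 in replicate 1. With a limit of 3 counts, a gene at 0 could have up to 0.146 CPM (counts per 1000000 in gene rows) in replicate 2 and 0.290 CPM in replicate 1.

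With 1 group and no control, levels were described as mean ± SD over 2 libraries, and no test was made. Such SDs measure only the spread between these libraries. Levels of lists used log2(TPM + 1), which understates differences of low genes. Coding genes exclude those of the mitochondrial genome. Noncoding share is the percent of a gene's TPM in isoforms not annotated protein-coding. The IkB genes and pathway lists were chosen with earlier results of these data known. All 6 IkB genes were named, with every gene of pathway lists of up to 5 and the highest and lowest of the longer one, the nearest pathway genes and each overlapping gene. Scripts ran in Python 3.11.15 with pandas 2.3.3, numpy 2.4.6 and scipy 1.17.1. The ratio step was tested on simulated counts that held no transcript lengths or isoforms, so its behaviour on TPM was not tested. Alternatives were another pseudocount, CPM, rescaled TPM, no filter, the read-based tables, shares of counts and leaving out each library.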

Additional observations from a re-analysis of the deposited data

How the results depend on the processing

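No paired analysis was possible because the series has 1 group. The median log2 level of the 6 IkB genes was 6.63, and ranged over 6.38 to 6.87 with 1 library left out. It was 8.08 on CPM, 8.86 with TPM rescaled over coding genes and 5.45 in the read-based tables, which are other scales. The median log2 level of classical minus atypical members was 0.32 (0.29 to 0.35 with 1 library left out). It was 0.86 on CPM, where length is not corrected, and -0.0090 in the read-based tables. In each of these settings the class medians were Nfkbie and Nfkbid, so the difference is that of this pair. In the read-based tables the pair was nearly equal, at 5.44 for Nfkbie and 5.45 for Nfkbid. The cause of this reversal was not tested. The 1 gene more than 2-fold from the median ratio, Bcl3, was 0 genes in the read-based tables. The median noncoding share over all 6 genes, with Nfkbib at 0 because it has no such isoform, was 8.80% (7.11 to 10.5 with 1 library left out). It was 9.52% over the other 5, an alternative chosen after seeing the data. Over all 6 it was 2.87% by counts and 16.7% in the read-based tables. Between the libraries, Nfkbib reversed to 0.056 on CPM, 0.0020 with no filter and 0.21 in the read-based tables, and Nfkbiz to 0.16 in the read-based tables. The causes were not tested. Bcl3 stayed more than 2-fold from the median gene except in the read-based tables (0.79). Among settings that keep both libraries, 17 single-gene levels and 9 single-gene noncoding shares moved beyond the SD over the libraries, and 7 and 6 did not. All the moves of levels were on CPM, rescaled TPM or the read-based tables, which are other scales. The count of moved levels therefore does not measure how firm the levels are. Isoform shares are estimates, and low counts limit Bcl3 and Nfkbid-204. Reads of RNA not yet spliced were not separated from reads of retained-intron isoforms.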
